A study of Homo sapiens with 20 samples.

Results

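The HOX genes encode the homeodomain transcription factors that give cells along the body axis their position. All protein-coding genes of the RefSeq annotation on hg38 named HOXA, HOXB, HOXC or HOXD followed by a number were taken, which gave 39 of 20037 genes on chromosomes 1 to 22, X and Y. They comprised 11 HOXA, 10 HOXB, 9 HOXC and 9 HOXD genes. In each of 10 deposited lists of ATAC-seq intervals, every interval inside a cluster (from its first to its last HOX gene, with 10 kb either side) and every interval at a HOX gene was recorded.

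HOX genes lie in 4 clusters in which all genes are read in the same direction, and low-numbered (anterior) genes are switched on earlier and closer to the head than high-numbered (posterior) genes. In adult tissues each organ keeps its own set of active HOX genes, and the gut and its tumours are known to express several of them. Genes that are off are commonly held by Polycomb complexes over CpG-rich DNA, while trithorax complexes keep active genes open.

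ATAC-seq, in which a transposase cuts accessible DNA, was applied to LOVO and RKO cells, established lines from human colon adenocarcinomas. A control hairpin (shControl) or a hairpin against METTL3 (shMETTL3) was present in the cells, which were left untreated or given olaparib, a poly(ADP-ribose) polymerase inhibitor. METTL3 writes the N6-methyladenosine mark on RNA. Each line had 10 samples, 4 of untreated shControl (of which 2 carry a second-batch label) and 2 of each other group. Not given in the sources used here were the hairpin sequences, whether the knockdown cells were pools or clones, and the dose and time of olaparib. Each of the 10 lists is deposited under the name of a group. In each line, shControl and shMETTL3 without drug had 1 merged list each, holding intervals only, while untreated shControl, shControl with olaparib and shMETTL3 with olaparib had 1 scored list each. The interval names of the scored lists all carry replicate 1, without a statement on whether that sample alone was used. Untreated shControl thus had 2 lists of different form per line, and these were the only measure of spread. With at most 1 list of each form per group no test between groups was possible, so HOX counts are given beside the same share over all genes or intervals, and brackets give 95% exact (Clopper-Pearson) intervals that cover counting error only. The lists held 6916 to 51462 intervals. Sequencing depth was unknown, and a missing interval does not show closed chromatin. CDX2, the homeobox gene that sets intestinal identity and acts on HOX genes, had an interval at a gene end in 5 LOVO lists and 4 RKO lists. Its relative CDX1 had one in 1 LOVO list and 0 RKO lists, and CDX4 in 0 lists of either line.

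HOXA spans chr7:27092993-27200091, HOXB chr17:48528526-48728750, HOXC chr12:53938831-54056030 and HOXD chr2:176087487-176190907 (hg38). HOXA and HOXB are read on the minus strand and HOXC and HOXD on the plus strand. In LOVO the 4 clusters together held 26 intervals in the merged untreated shControl list, 10 in untreated shMETTL3, 43 in the scored untreated shControl list, 35 in shControl with olaparib and 54 in shMETTL3 with olaparib. For RKO these numbers were 41, 7, 27, 34 and 46. Intervals were denser in the clusters than around genes at large in each of the 10 lists. The density was 1.15 to 8.88 intervals per 100 kb in the clusters, against 0.410 to 2.41 per 100 kb over all genes taken with the same flanks. This is a density per length of DNA and not per gene. Each cluster packs 9 to 11 HOX genes into 123.4 to 220.2 kb with flanks, and the number of genes per length was not taken into account. HOXA was the densest cluster of the scored lists, with 7.87 (RKO untreated shControl) to 14.2 (LOVO shMETTL3 with olaparib) intervals per 100 kb. HOXD held 6 intervals at most, in the merged control list of either line and in the scored control list of LOVO.

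**Figure D1:**
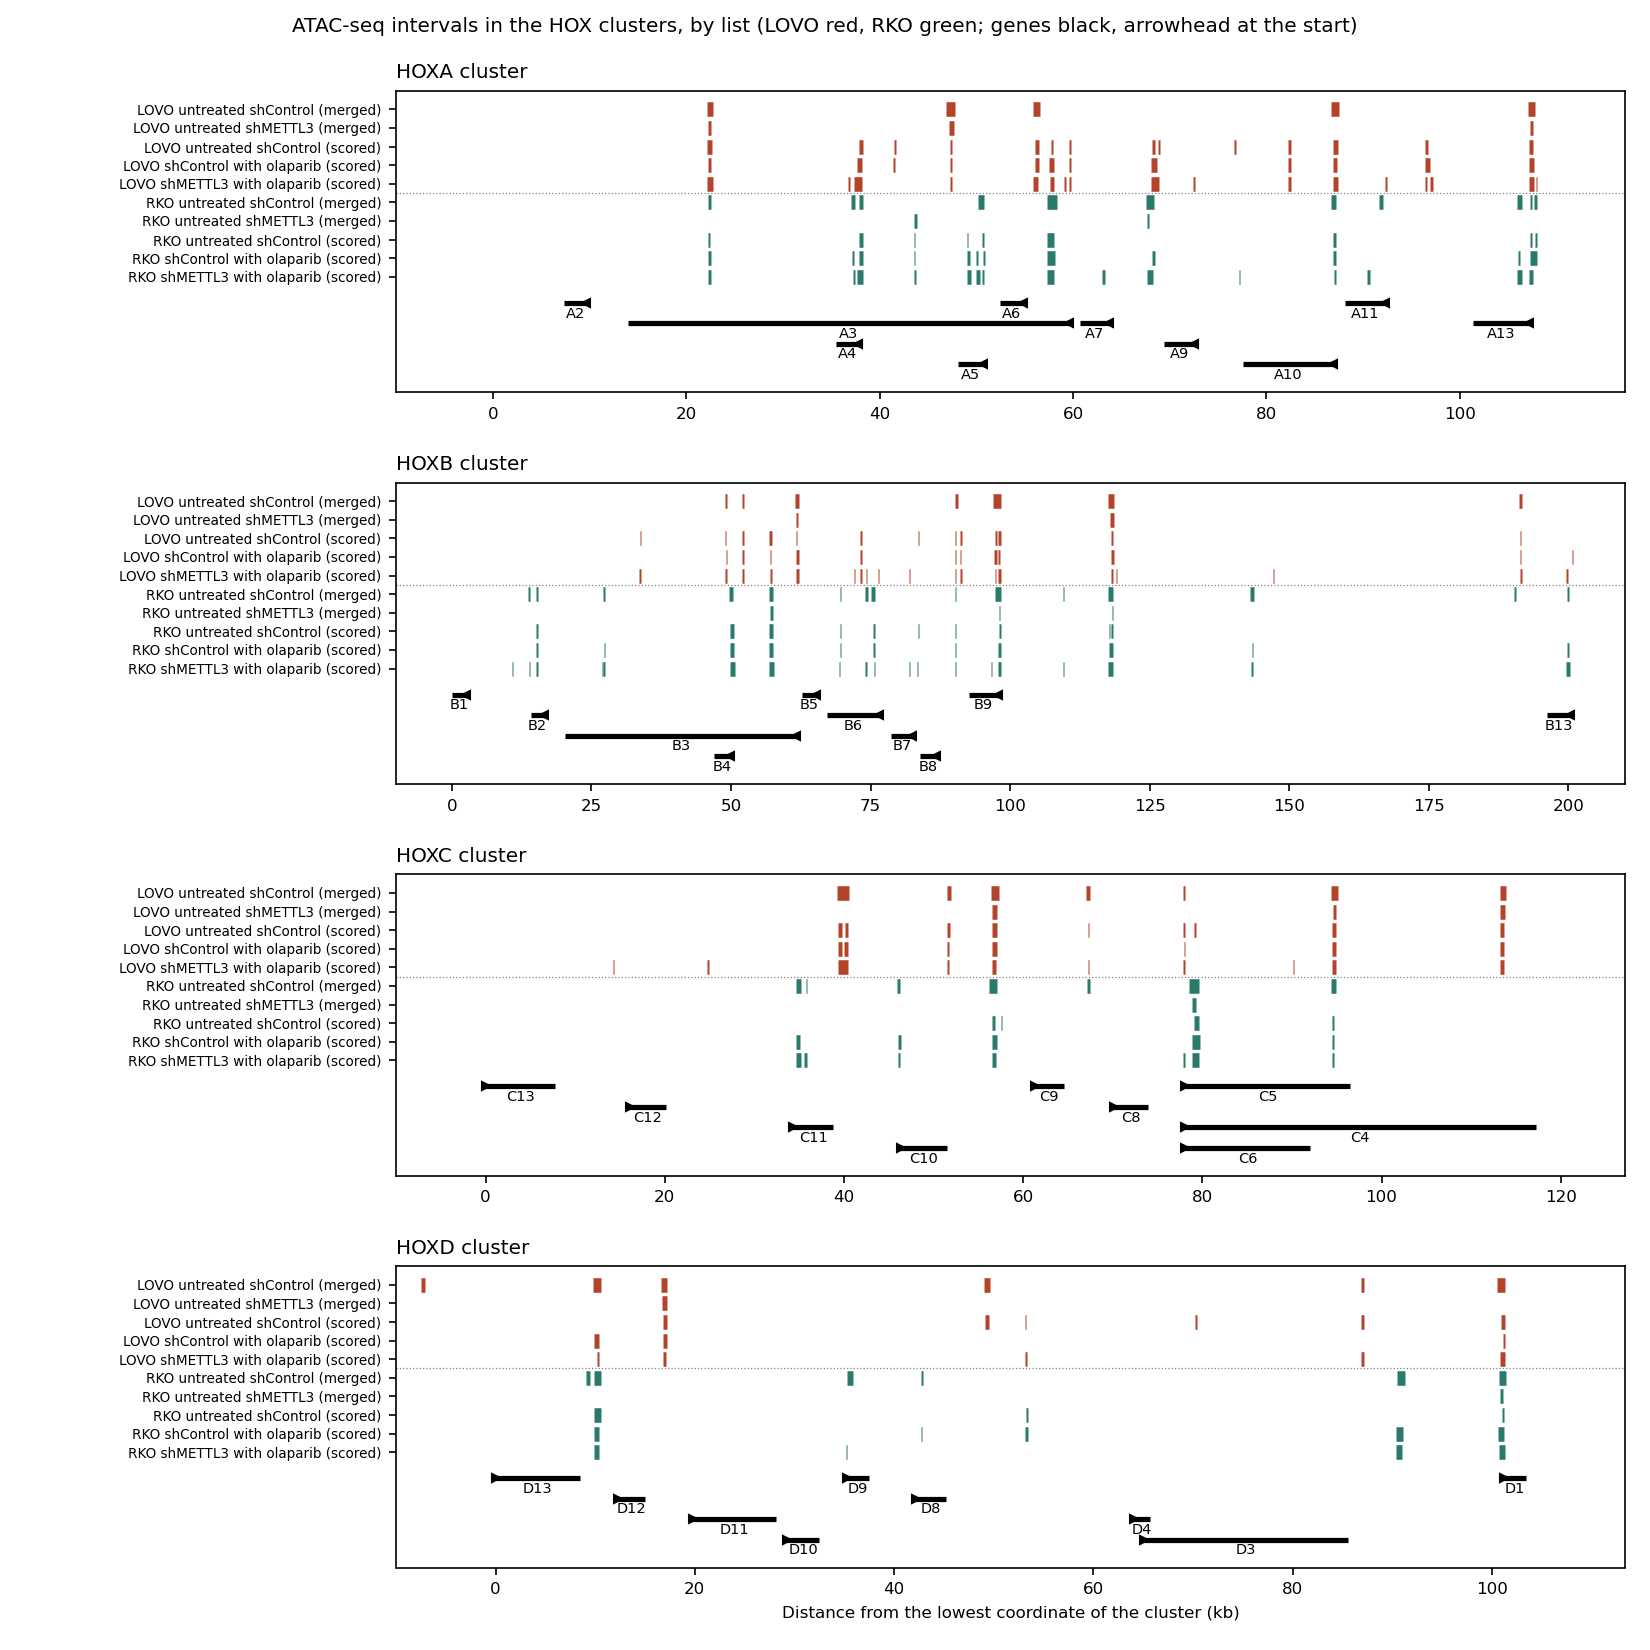
Position of ATAC-seq intervals in the HOXA, HOXB, HOXC and HOXD clusters (x axis, kb from the lowest coordinate of the cluster) in each of the 10 lists (y axis; LOVO red, RKO green), with the genes named in the text as black bars and an arrowhead at each start; intervals within 1 kb of a gene not reported are left out. The untreated shMETTL3 rows are the sparsest, and several columns of intervals are present in a single line.

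By score, the strongest interval of each cluster lay away from the annotated HOX gene starts. The authors deposited the score without saying which measure of the peak caller it is. It was used to rank within a list and, for these top intervals, to take the highest value over the 6 scored lists. The top interval of HOXA was chr7:27115169-27115710, inside HOXA3, in the scored untreated shControl list of LOVO (score 16.9, above 93.6% of that list). A further RefSeq promoter window of HOXA3, chr7:27113793-27114092, lies nearer to it than any annotated HOX gene start. The top interval of HOXC, chr12:54052082-54052464, lay inside HOXC4 (score 16.6, above 92.9% of the same list). Its site was 35168 bp from the annotated start that HOXC4 shares with HOXC5 and HOXC6. That of HOXD, chr2:176104277-176104678, lay between HOXD12 and HOXD11 (score 14.6, above 87.0% of the same list). In HOXB it was chr17:48585363-48586150, 4091 bp inside HOXB3, in shMETTL3 with olaparib of RKO (score 15.1, above 91.6% of that list). By rank within a list, the scored control interval of RKO at the same site stood higher (score 12.6, above 92.3%). The HOXC and HOXD intervals had counterparts in all 5 LOVO lists and in no RKO list. Most cluster intervals ranked lower: the median cluster interval stood above 23.1 to 36.1% of its list by score in the 6 scored lists, and above 40.4 to 61.2% of its list by width in the 4 merged lists. The widest intervals were 979 bp at chr7:27139865-27140843 beside HOXA5, 1429 bp at chr17:48625460-48626888 over the start of HOXB9, 1410 bp at chr12:53978036-53979445 past the end of HOXC11 (these 3 in the merged control list of LOVO), and 809 bp at chr2:176178012-176178820, upstream of HOXD1, in that of RKO.

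Promoter sequences are shown because many HOX promoter windows met by no interval were rich in CG dinucleotides. The RefSeq promoter table for GRCh38.p14 (250 bases before to 50 after a start) had 27 entries for 20 of the 39 genes, with 26 distinct windows. The 5 windows below are written 5′ to 3′ on the gene's strand with CG dinucleotides in capitals. HOXA2 (chr7:27102634-27102933, minus strand) and HOXA6 (chr7:27147725-27148024, minus strand) are the first members open in no list. HOXA13 (chr7:27200042-27200341, minus strand) and HOXD1 (chr2:176188418-176188717, plus strand) were met by an interval in 9 lists, and the start shared by HOXC4 and HOXC5 (chr12:54016638-54016937, plus strand) in 4 LOVO lists and 1 RKO list. These last 3 windows were chosen after their values were seen.
HOXA2: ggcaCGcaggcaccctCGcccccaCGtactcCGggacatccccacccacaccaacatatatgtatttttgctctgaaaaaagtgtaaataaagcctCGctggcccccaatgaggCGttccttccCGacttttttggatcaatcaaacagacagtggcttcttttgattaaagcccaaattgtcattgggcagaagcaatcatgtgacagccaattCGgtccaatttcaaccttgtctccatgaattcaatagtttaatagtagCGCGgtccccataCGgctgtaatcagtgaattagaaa
HOXA6: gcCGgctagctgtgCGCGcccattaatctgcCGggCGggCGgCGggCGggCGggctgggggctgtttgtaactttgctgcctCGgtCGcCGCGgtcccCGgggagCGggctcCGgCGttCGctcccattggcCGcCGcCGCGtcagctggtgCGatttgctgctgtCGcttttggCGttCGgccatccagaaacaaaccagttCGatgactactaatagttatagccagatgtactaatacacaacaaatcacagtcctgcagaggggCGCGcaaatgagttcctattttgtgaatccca
HOXA13: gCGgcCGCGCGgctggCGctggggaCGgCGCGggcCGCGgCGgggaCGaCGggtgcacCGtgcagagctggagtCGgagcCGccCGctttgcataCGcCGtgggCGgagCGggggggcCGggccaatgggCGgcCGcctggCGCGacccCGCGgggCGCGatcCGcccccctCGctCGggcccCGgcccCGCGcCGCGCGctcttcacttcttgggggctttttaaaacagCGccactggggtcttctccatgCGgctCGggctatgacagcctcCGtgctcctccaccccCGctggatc
HOXD1: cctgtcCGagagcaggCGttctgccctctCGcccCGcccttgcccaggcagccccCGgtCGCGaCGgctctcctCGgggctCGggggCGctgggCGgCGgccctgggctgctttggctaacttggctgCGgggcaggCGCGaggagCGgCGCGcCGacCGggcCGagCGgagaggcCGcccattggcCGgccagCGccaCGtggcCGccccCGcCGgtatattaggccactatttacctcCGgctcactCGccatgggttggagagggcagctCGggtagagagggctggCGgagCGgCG
HOXC4 and HOXC5: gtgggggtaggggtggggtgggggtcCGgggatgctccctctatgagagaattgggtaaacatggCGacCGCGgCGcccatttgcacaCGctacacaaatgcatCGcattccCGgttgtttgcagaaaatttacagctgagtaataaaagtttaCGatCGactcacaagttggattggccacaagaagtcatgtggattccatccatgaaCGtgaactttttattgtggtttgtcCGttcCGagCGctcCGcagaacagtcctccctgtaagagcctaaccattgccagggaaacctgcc

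HOXA6 held 29 CG dinucleotides and HOXA2 11, with an interval in no list, while HOXA13 held 44, HOXD1 36 and the HOXC4 and HOXC5 window 15. Over all 34943 distinct promoter windows, those met by an interval in any list had a median of 26 CG dinucleotides and those met by none had 5.00. Over the 26 HOX windows the medians were 22 in the 9 met by an interval and 23 in the 17 met by none. Covered and uncovered HOX windows thus had similar medians. HOXD8 (34), HOXA7 (31) and HOXD11 (27) were CG-rich windows met by no interval. Outside its window, HOXD8 had an interval within 1 kb of the start in 2 RKO lists, and HOXA7 in 1 RKO list. HOXA3, which makes 7 of the windows, spread from 0 to 29. Motifs were searched on both strands. TTTATNG, a form bound by posterior HOX proteins, stood in 6 of 26 HOX windows (23.1%; 9.75% of all windows), TAATTA, the general homeodomain core, in 2 (7.69%; 4.85%), and TGATTNAT, a joint PBX and HOX form, in 2 (7.69%; 2.82%). With 26 windows, several of them from HOXA3, these counts are a description.

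A gene was called open where an interval came within 1 kb of either annotated end. In LOVO 15 of 39 HOX genes were open in the merged control list (38.5% [23.4 to 55.4]; 51.5% of all genes), 5 in untreated shMETTL3 (12.8% [4.30 to 27.4]; 35.8% of all genes), 21 in the scored control list (53.8% [37.2 to 69.9]; 55.8%), 20 in shControl with olaparib (51.3% [34.8 to 67.6]; 53.2%) and 22 in shMETTL3 with olaparib (56.4% [39.6 to 72.2]; 58.5%). In RKO 20 were open in the merged control list (51.3%; 54.9% of all genes), 5 in untreated shMETTL3 (12.8%; 25.3%), 11 in the scored control list (28.2% [15 to 44.9]; 47.6%), 18 in shControl with olaparib (46.2% [30.1 to 62.8]; 52.3%) and 20 in shMETTL3 with olaparib (51.3%; 55.4%). The HOX share lay below the share of all genes in each of the 10 lists. The interval of the HOX share excluded the share of all genes in LOVO untreated shMETTL3 and in the scored control list of RKO. Neighbouring HOX genes can share an interval, so genes are not independent counts.

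**Figure D2:**
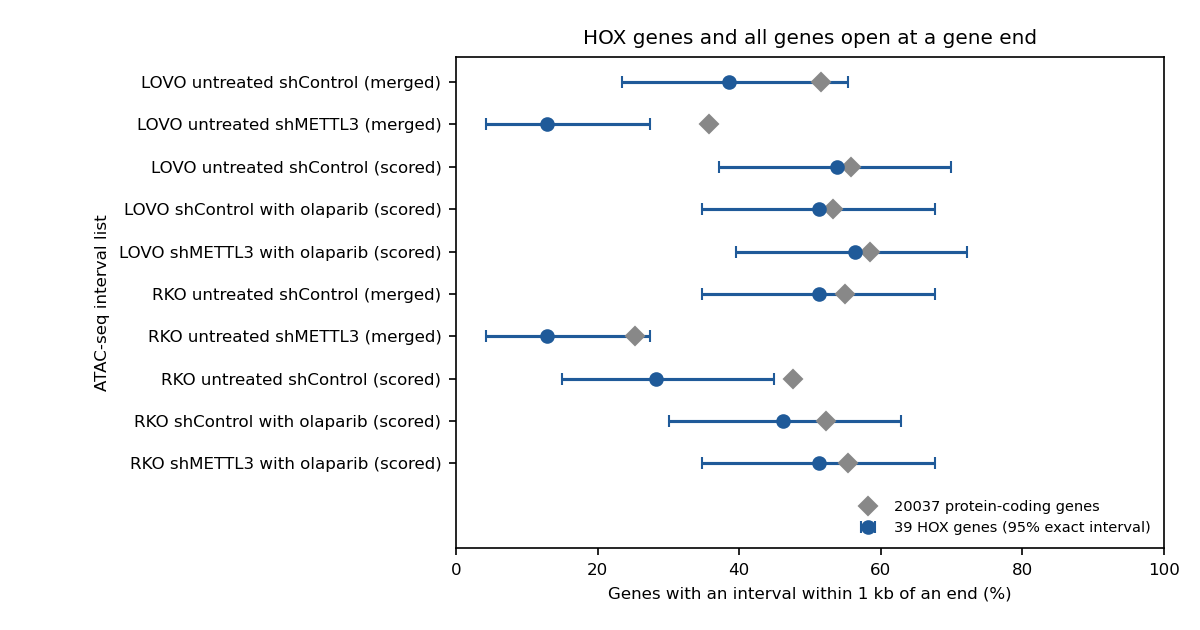
Percent of genes with an ATAC-seq interval within 1 kb of a gene end (x axis) in each list (y axis). Blue points are the 39 HOX genes with 95% exact binomial intervals and grey diamonds are all 20037 protein-coding genes; the HOX share lies below that of all genes throughout, from 12.8% in both untreated shMETTL3 lists to 56.4% in LOVO shMETTL3 with olaparib.

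By paralog number, the 8 anterior genes (1 to 3) had 3 open members in the merged control list of either line. Of the 15 central genes (4 to 8), 6 were open in LOVO and 8 in RKO. Of the 16 posterior genes (9 to 13), 6 were open in LOVO and 9 in RKO. The lines differed in where the interval sat. In LOVO an interval stood only at the 3′ end for 5 of 15 open genes in the merged control list and for 8 of 21 in the scored one, while in RKO this was so for 2 of 20 and 1 of 11. Among all open genes with a strand in the promoter table, calls at the 3′ end alone made up 4.23% and 3.53% in these LOVO lists and 3.60% and 4.01% in those of RKO. Part of the LOVO calls were intervals over the start of the neighbouring gene: HOXB5 was called through the start of HOXB3, HOXA7 through that of HOXA3 and HOXA11 through that of HOXA10. By starts alone, a reading added after the data were seen, LOVO had 10, 3, 13, 13 and 17 open HOX genes in the order of lists above and RKO had 18, 5, 10, 16 and 18. Of the 15843 genes with a strand, 51.9%, 36.7%, 56.4%, 54.0% and 58.8% were open at the start in LOVO and 55.5%, 25.6%, 48.2%, 53.0% and 55.6% in RKO.

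**Figure D3:**
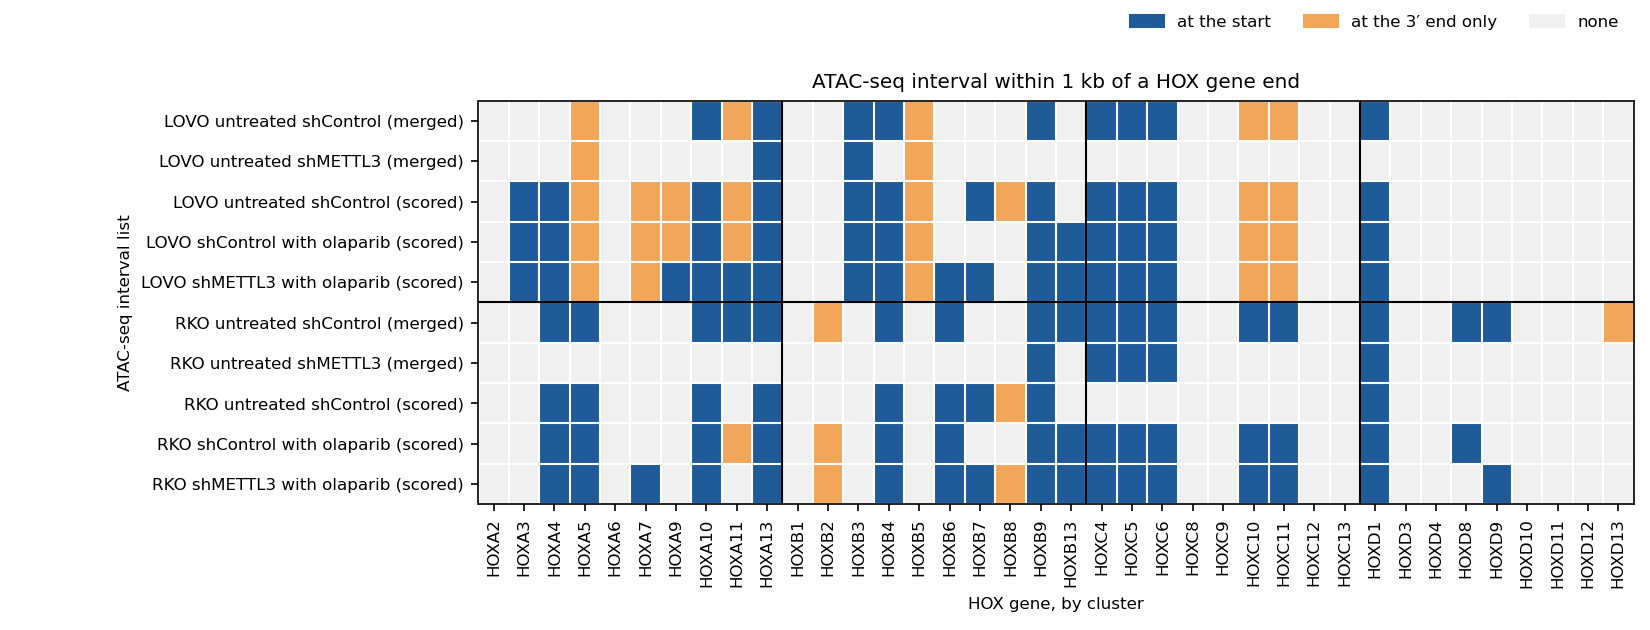
State of each HOX gene named in the text (x axis, by cluster) in each of the 10 lists (y axis): interval within 1 kb of the start (blue), of the 3′ end only (orange) or none (grey). HOXB3 and HOXB5 are marked in all LOVO rows and no RKO row, 12 genes are grey throughout, and 3′-end calls gather in LOVO at HOXA5, HOXA11, HOXB5, HOXC10 and HOXC11.

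In HOXA, HOXA13, which patterns the hindgut, limb and urogenital tract, was open at the start in all 5 LOVO lists and in 4 RKO lists, all but untreated shMETTL3. HOXA10, a posterior gene of the reproductive tract and blood, was open at the start in 4 lists of each line. HOXA4 was open in 3 LOVO and 4 RKO lists, HOXA5, known in lung and gut development, in 5 and 4, HOXA11 in 4 and 2, HOXA7 in 3 and 1, HOXA3 in 3 and 0 and HOXA9 in 3 and 0. In RKO the nearest interval lay 1279 to 1540 bp from HOXA3 in all lists but untreated shMETTL3. For HOXA9 it lay 1015 to 1225 bp away in the merged control and olaparib lists, but 11395 bp in the scored control list. Another HOXA3 promoter window, chr7:27150901-27151200, was met in 3 LOVO and 4 RKO lists. In HOXB, HOXB9 was open at its start in 4 LOVO and 5 RKO lists and HOXB4, a blood stem cell regulator, in 4 of each. HOXB6 was open in 1 LOVO and 4 RKO lists, HOXB7 in 2 and 2, HOXB8 in 1 and 2, HOXB13, a hindgut and prostate factor, in 2 and 3, and HOXB2 in 0 and 3. In HOXC, HOXC4, HOXC5 and HOXC6, which share an annotated start, were open together in 4 lists of each line, and HOXC10 and HOXC11 in 4 LOVO and 3 RKO lists. In HOXD, HOXD1 was open at its start in 4 LOVO and 5 RKO lists. HOXD8 and HOXD9 were open in 2 RKO lists each, HOXD13 in 1 RKO list and none of the 3 in LOVO. No HOX gene was open in all 10 lists, against 20.1% of all genes.

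The 12 HOX genes open in no list were HOXA2, HOXA6, HOXB1, HOXC8, HOXC9, HOXC12, HOXC13, HOXD3, HOXD4, HOXD10, HOXD11 and HOXD12, as were 35.4% of all genes. HOXD contributed 5 of its 9 genes and HOXC 4 of its 9. Some were far from any interval in every list, with a smallest gap of 8299 bp for HOXB1 and 6469 bp for HOXC13. Others were just outside the window, with a smallest gap of 1078 bp for HOXA6 and 1268 bp for HOXD3. Just inside were HOXB7 (967 bp in the scored control list of RKO) and HOXA7 (949 bp in 2 LOVO lists). The RefSeq promoter entries of HOXD3 and HOXD13, and further entries of HOXA3 and HOXA10, start inside the annotated gene. These other starts were not covered by the window. Near the HOXD3 entry (chr2:176157057-176157356) the scored control list of LOVO had an interval, chr2:176157686-176157884. HOXD3 was thus open in no list only as read at its annotated ends.

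The lines differed in which HOX genes were open and in which cluster intervals they had. HOXB3 and HOXB5 were open in every LOVO list and in no RKO list (2 of 39; 1.32% of all genes), both through 1 site, chr17:48590041-48590766, which covers the start of HOXB3 and lies past the 3′ end of HOXB5. That interval was 726 bp in the merged control list, 276 bp in untreated shMETTL3, and scored 8.14, 7.28 and 8.48 in the scored control, olaparib and shMETTL3 with olaparib lists, above 35.2 to 44.0% of each list. No HOX gene was open in every RKO list and in no LOVO list, against 0.314% of all genes. Of the 26 HOX cluster intervals of the merged control list of LOVO, 12 were met by an interval of that of RKO (46.2% [26.6 to 66.6]; 44.1% of all intervals). Of the 41 of RKO, 13 were met by LOVO (31.7% [18.1 to 48.1]; 54.6% of all intervals).

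Several HOX genes were open in both lines through different DNA. Of 13 HOX genes open in both merged control lists, 7 (53.8%) had no interval in common, against 1.30% of the 9399 genes open in both. At HOXC10, a posterior limb and spinal cord gene, the LOVO interval lay past the 3′ end (chr12:53990331-53990741) and the RKO interval over the start (chr12:53984759-53985126). At HOXC11 the LOVO interval again lay past the 3′ end (chr12:53978036-53979445) and that of RKO within 1 kb of the start (chr12:53973504-53974005). HOXA5 showed the same arrangement, with chr7:27139865-27140843 in LOVO on the 3′ side and chr7:27143143-27143840 in RKO at the start. At HOXB4 the LOVO interval was inside the gene (chr17:48577465-48577808) and the RKO interval over its start (chr17:48578206-48578982). HOXC4, HOXC5 and HOXC6 had chr12:54016713-54016909 over the start in LOVO and chr12:54017393-54018420 downstream of it in RKO. Since these 3 genes share a start, the 7 genes stood for 5 places. HOXA10, HOXA11, HOXA13, HOXB9 and HOXD1 were among those open through a common interval. In the shMETTL3 with olaparib lists 6 of 17 HOX genes open in both lines had no common interval (35.3%; 2.22% of all genes): HOXA5, HOXA7, HOXB4, HOXB6, HOXC10 and HOXC11. In the scored control lists the count was 2 of 10, and with a window of 500 bp on the merged lists 3 of 8.

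Joined over the 10 lists, the cluster intervals formed 88 sites, 27 in HOXA, 34 in HOXB, 15 in HOXC and 12 in HOXD. Of these, 23 were found in both lines (26.1% [17.3 to 36.6]; 31.5% of all sites), 36 in LOVO alone (40.9%, against 44.7% of all sites) and 29 in RKO alone (33.0%, against 23.8%). Counting only sites in 3 or more lists of their line and in none of the other, a rule chosen after the data were seen, 16 were of LOVO (18.2% [10.8 to 27.8]; 21.8% of all sites) and 13 of RKO (14.8% [8.11 to 23.9]; 6.11% of all sites). The RKO sites lay within 1 kb of a HOX start in 6 of 13 cases and the LOVO sites in 3 of 16. For these counts near starts, and for the sites in 9 or 10 lists below, no share over all sites was taken. LOVO sites in all 5 lists were the HOXB3 start, the HOXA5 3′ side, chr12:54052056-54052734 inside HOXC4 and chr2:176104116-176104699 between HOXD12 and HOXD11. RKO sites in 4 lists included the starts of HOXA5 and HOXB4. Only 1 site stood in all 10 lists, chr17:48646012-48647096, 19654 bp upstream of the HOXB9 start. It covers the high-coordinate edge of the long non-coding RNA gene LINC03057, whose strand was not taken, and lies inside another, LINC02086. Another 7 sites stood in 9 lists, among them the starts of HOXA13, HOXB9 and HOXD1.

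**Figure D4:**
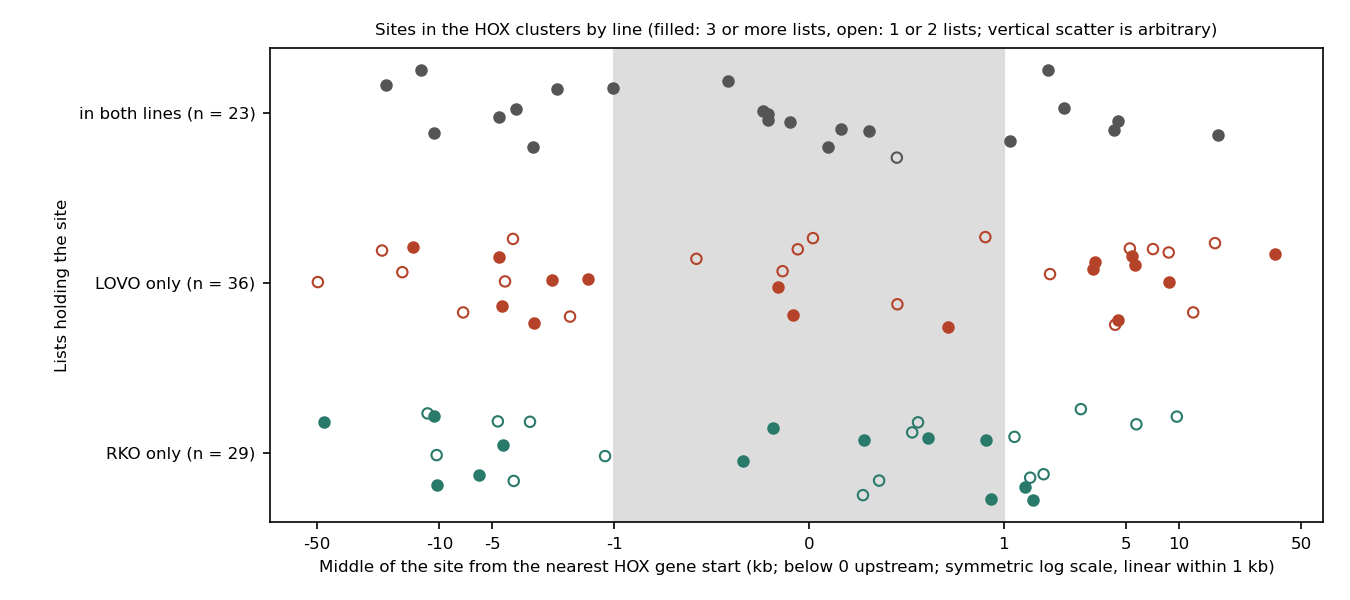
Distance of the middle of each of the 88 sites from the nearest HOX gene start (x axis, kb, symmetric log scale, negative upstream) for sites in both lines (n = 23), LOVO only (n = 36) and RKO only (n = 29); filled points stand in 3 or more lists, and vertical scatter is arbitrary. Within 1 kb of a start (measured from the site's edge) lie 11 sites of both lines, 9 of LOVO and 11 of RKO.

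The 2 untreated shControl lists of each line set the scale for what follows. In LOVO the scored list lacked 0 of the 15 HOX genes open in the merged list (3.09% of all genes) and added 6 of 24 (12.2% of all genes): HOXA3, HOXA4, HOXA7, HOXA9, HOXB7 and HOXB8. In RKO the scored list lacked 11 of 20 (55.0% [31.5 to 76.9]; 14.4% of all genes) and added HOXB7 and HOXB8, 2 of 19 (1.50% of all genes). The 11 were HOXA11, HOXB2, HOXB13, HOXC4, HOXC5, HOXC6, HOXC10, HOXC11, HOXD8, HOXD9 and HOXD13. Some of these were near misses: the nearest interval of the scored list lay 1027 bp from HOXC4, HOXC5 and HOXC6, 1011 bp from HOXA11 and 1024 bp from HOXB2. Of the cluster intervals of the merged list, 24 of 26 were met by the scored list in LOVO (92.3%; 87.8% of all intervals) and 21 of 41 in RKO (51.2%; 63.1% of all intervals). At HOX genes the 2 control lists of RKO thus differed by more than over all genes.

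Untreated shMETTL3 cells were compared with untreated shControl cells on the merged lists. In LOVO 10 of 15 open HOX genes were lost (66.7% [38.4 to 88.2]; 31.2% of all genes) and 0 of 24 were gained (0.813% of all genes). HOXA10, HOXA11, HOXB4, HOXB9, HOXC4, HOXC5, HOXC6, HOXC10, HOXC11 and HOXD1 were lost. HOXA5, HOXA13, HOXB3 and HOXB5 were among those that stayed. In RKO 15 of 20 were lost (75.0% [50.9 to 91.3]; 54.1% of all genes) and 0 of 19 gained (0.321% of all genes). There HOXB9, HOXC4, HOXC5, HOXC6 and HOXD1 stayed, and HOXA4, HOXA5, HOXA10, HOXA11, HOXA13, HOXB2, HOXB4, HOXB6, HOXB13, HOXC10, HOXC11, HOXD8, HOXD9 and HOXD13 were among those lost.

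No HOX gene was kept in both lines, while at least 20.1% of all genes, those open in all 10 lists, were. The genes kept were HOXA and HOXB genes in LOVO, while in RKO all 6 open HOXA genes were lost. Those lost in both lines were HOXA10, HOXA11, HOXB4, HOXC10 and HOXC11. For genes lost or gained in both lines, here and below, no share over all genes was taken. The HOXA10 start interval of the control lists, chr7:27179639-27180506 in LOVO and chr7:27179682-27180202 in RKO, had no counterpart in shMETTL3. The call of HOXA11 rested on that interval, which lies within 1 kb of its 3′ end, and in RKO also on chr7:27184670-27185075 near its start. Of the cluster intervals, 10 of 26 were kept in LOVO (38.5% [20.2 to 59.4]; 47.5% of all intervals), with a median width of 770 bp against 502 bp for those lost. In RKO 6 of 41 were kept (14.6% [5.57 to 29.2]; 23.1% of all intervals), 894 bp against 406 bp. Whole lists shrank as well, from 33474 to 16417 intervals in LOVO and from 27978 to 6916 in RKO. With the longer list cut to as many intervals, widest first, 5 of 10 HOX genes were lost in LOVO (26.5% of all genes) and 1 of 5, HOXB4, in RKO (44.0% of all genes). With the scored control list as reference the counts were 16 of 21 (36.2%) and 9 of 11 (48.8%). The part of sequencing depth in these losses was not tested.

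The effect of olaparib in shControl cells was read from the scored lists. In LOVO 2 of 21 open HOX genes were lost (7.47% of all genes) and 1 of 18 gained (3.49% of all genes). In RKO 2 of 11 were lost (2.36% of all genes) and 9 of 28 gained (32.1% [15.9 to 52.4]; 11.1% of all genes). HOXB7 and HOXB8 were lost and HOXB13 was gained in both lines. HOXB7 and HOXB8 were called through 1 interval between them, chr17:48611986-48612215 in LOVO (score 4.33, above 3.27% of its list) and chr17:48611984-48612258 in RKO (score 4.63, above 8.94% of its list), so the loss concerned 1 weak place, also without an interval in either merged control list. The HOXB13 interval of the olaparib lists lay upstream of the start in LOVO (chr17:48729218-48729441, score 4.73, above 7.65% of its list) and over the gene's first part in RKO (chr17:48728328-48728664, score 4.72, above 10.1%).

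The other RKO gains were HOXA11, HOXB2, HOXC4, HOXC5, HOXC6, HOXC10, HOXC11 and HOXD8. All 9 were open in the merged control list of RKO, so with that list as reference 0 HOX genes were gained with olaparib. Of the cluster intervals of untreated cells, 33 of 43 were met after olaparib in LOVO (76.7% [61.4 to 88.2]; 71.8% of all intervals) and 25 of 27 in RKO (92.6% [75.7 to 99.1]; 88.5% of all intervals). In LOVO the HOXD cluster went from 6 intervals to 3 and HOXA from 15 to 13. Intervals lost in LOVO had a median width of 200 bp, against 346 bp for those kept.

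With olaparib present, shMETTL3 cells were compared with shControl cells on the scored lists. In LOVO 0 of 20 open HOX genes were lost (1.50% of all genes) and HOXB6 and HOXB7, 2 of 19, were gained (12.9% of all genes). In RKO HOXA11 and HOXD8, 2 of 18, were lost (1.79% of all genes) and HOXA7, HOXB7, HOXB8 and HOXD9, 4 of 21, were gained (8.38% of all genes). HOXB7, a central gene, was gained in both lines, through chr17:48610490-48610663 in LOVO (score 3.93, above 2.36% of its list) and chr17:48610470-48610620 in RKO (score 4.34, above 7.50%), where chr17:48611804-48612032, also within 1 kb of the start, was a further interval. HOXB7 was already open in the scored untreated shControl list of both lines, and HOXB8 in that of RKO. HOXA11 in RKO moved across the edge of the window, from a gap of 953 bp to 1001 bp. Of the cluster intervals, 33 of 35 were met in LOVO (94.3% [80.8 to 99.3]; 93.4% of all intervals) and 32 of 34 in RKO (94.1% [80.3 to 99.3]; 89.5% of all intervals), and 21 and 14 intervals of shMETTL3 with olaparib were met by none of shControl with olaparib. The HOX clusters thus kept nearly all their intervals here, at shares close to those of all intervals. The shMETTL3 lists were the longer ones, with 51462 against 32192 intervals in LOVO and 35455 against 25855 in RKO. Cut to equal numbers, LOVO lost 7 of 20 HOX genes (15.3% of all genes) and gained 0, and RKO lost 6 of 18 (14.9%) and gained 1.

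Olaparib in shMETTL3 cells sets a scored list against a merged one and is given for completeness. In LOVO 0 of 5 open HOX genes were lost (0.279% of all genes) and 17 of 34 gained (95% interval 32.4 to 67.6%; 35.4% of all genes). In RKO 0 of 5 were lost (0.394% of all genes) and 15 of 34 gained (44.1% [27.2 to 62.1]; 40.4% of all genes). Gained in both lines were HOXA4, HOXA7, HOXA10, HOXB4, HOXB6, HOXB7, HOXB13, HOXC10 and HOXC11. At HOXA4 the gained intervals were chr7:27130340-27131214 over the start and chr7:27129772-27129930 inside the gene in LOVO, and chr7:27130670-27131281 over the start and chr7:27130225-27130470 beside it in RKO. HOXA7 was called through chr7:27152565-27152767 on its 3′ side in LOVO and chr7:27156011-27156280 near its start in RKO. HOXB6 was called through chr17:48604953-48605136 over its start in LOVO and chr17:48604072-48604359 downstream of it in RKO. At HOXA10 the intervals were chr7:27179865-27180361 in LOVO and, in RKO, chr7:27179928-27180156 and chr7:27170121-27170224, the last at the 3′ end. HOXB13 had chr17:48728178-48728392 in LOVO and chr17:48728088-48728795 in RKO. HOXB4 (chr17:48577483-48577754 in LOVO, chr17:48578398-48579172 in RKO), HOXC10 (chr12:53990337-53990603, chr12:53984828-53985136) and HOXC11 (chr12:53978149-53979275, chr12:53973502-53974006) were again called at different places in the lines, and HOXB7 through the intervals given above. All 10 cluster intervals of untreated shMETTL3 in LOVO and all 7 in RKO were met (99.2% and 97.2% of all intervals). This comparison shares the untreated shMETTL3 lists with the first one.

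**Figure D5:**
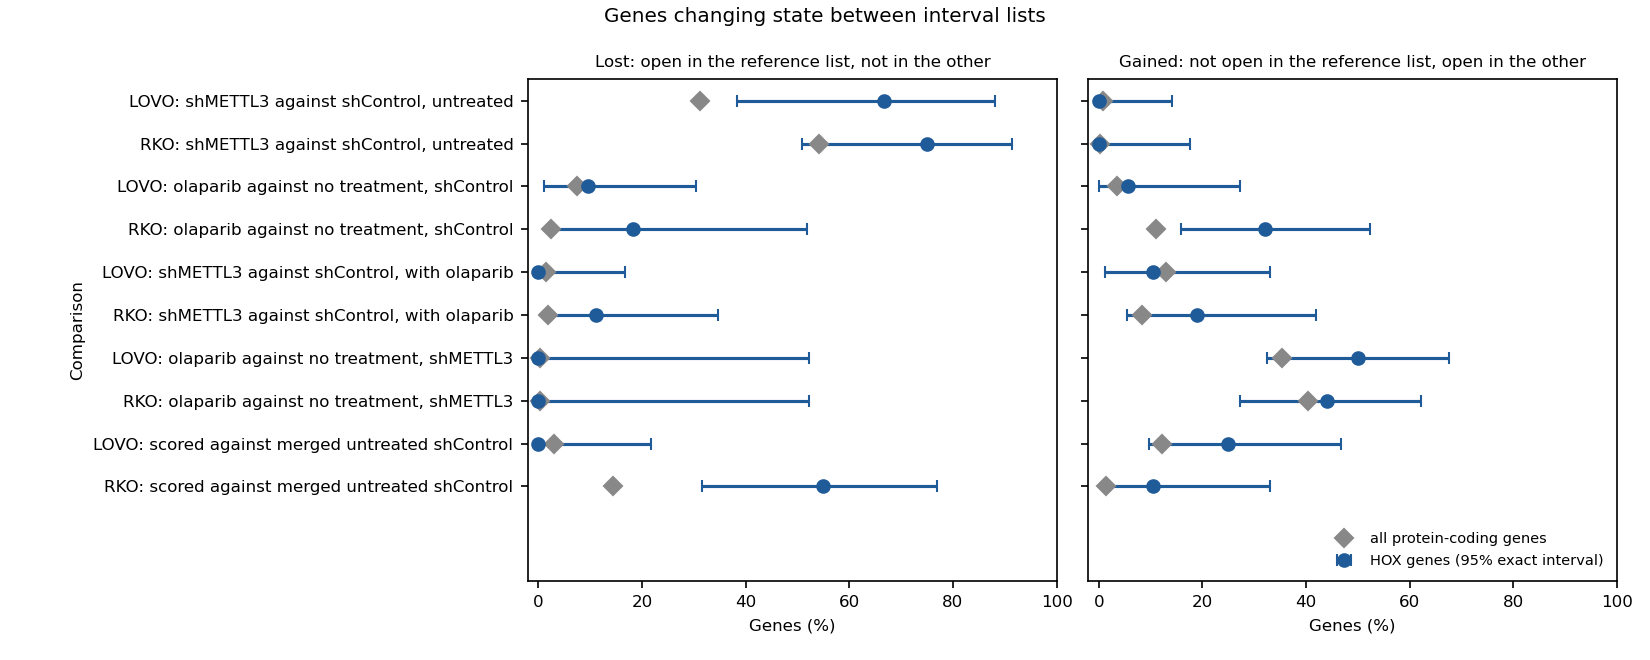
Percent of genes lost (left) and gained (right) in each comparison and line (y axis). Blue points are HOX genes with 95% exact binomial intervals and grey diamonds are all protein-coding genes; HOX losses reach 66.7% in LOVO and 75.0% in RKO with shMETTL3 in untreated cells, and 55.0% between the 2 untreated control lists of RKO.

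Genes that act with or on HOX genes, and the genes beside the clusters, were read in the same way. Of all genes, 51.5% were open in the merged control list of LOVO and 54.9% in that of RKO, and 31.2% and 54.1% of those were lost in untreated shMETTL3; the counts of these lists stand beside those shares. Of 9 TALE cofactors, the PBX, MEIS and PKNOX partners of HOX proteins, 6 were open in the merged control list of LOVO and 5 in that of RKO, and untreated shMETTL3 lists lacked 3 (PBX2, PBX3, PBX4) and 2 (MEIS2, PBX4) of them. MEIS1 was open in 5 LOVO lists and 0 RKO lists, as HOXB3 was (1.32% of all genes). Of 17 trithorax, Polycomb and boundary regulators, 10 were open in LOVO and 14 in RKO, and 4 and 9 were lost with shMETTL3. RNF2, EED and PHC1, all Polycomb subunits, were among those lost in both lines. EED, unlike RNF2 and PHC1, was also not open in the scored untreated control list of either line. EZH2, MEN1, CBX8, PHC2 and CTCF were open in all 10 lists, against 20.1% of all genes. Of 6 ParaHOX genes, the sister group of HOX, CDX2 and PDX1 were open in both merged control lists, and CDX2 was lost with shMETTL3 in RKO. Of 34 other homeobox genes of the same class, 9 were open in LOVO and 8 in RKO, and 6 and 5 were lost. Of 13 genes flanking the clusters, 8 were open in LOVO and 0 of them were lost, and 9 were open in RKO and 2, PRAC2 and SKAP2, were lost. HIBADH, TTLL6, SMUG1, CBX5, CALCOCO1, MTX2 and LNPK were open in all 10 lists, against 20.1% of all genes. SKAP2 was open in 5 LOVO and 4 RKO lists and PRAC2 in 1 RKO list. EVX1 was open in 1 LOVO list, and EVX2, SKAP1 and PRAC1 in none.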

How the data were processed

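Per the labels, ATAC-seq libraries of LOVO and RKO were made with a commercial kit. Per the submitters' processing notes, which give neither role nor order, the tools were MACS2 2.2.7.1, Bowtie2 2.4.2, DiffBind 3.0.15 and Trim Galore 0.6.6 and the build was hg38. Read shifting, filtering and the way samples were combined are not given in the sources used here. Each of the 10 lists that the authors deposited is named for a group; the interval names of the scored lists carry replicate 1, and none carries the second-batch label. In 6 of them the deposited score of each interval is given, without saying which measure it is, and 4 (called merged after their names) hold positions only. Which untreated shControl list holds the second batch is not given. No columns of other samples were used (0).

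Gene ends came from RefSeq on GRCh38, the assembly of hg38. Strand came from the RefSeq promoter table. A gene was open where an interval lay within 1000 bp of either end, intervals were shared from 1 bp of overlap, and clusters were taken with 10000 bp either side. "Lost" and "gained" compare a list with its reference list, of the same form unless stated. Intervals and counts were computed in Python 3.11.15 with pandas 2.3.3 and SciPy 1.17.1. Depth is unknown, so precision is given only as 95% exact (Clopper-Pearson) intervals, which cover counting error only; with at most 1 list of each form per group, no test was run. The overlap code was tested on simulated data, where 13373 of 13373 intervals dropped from the merged LOVO control list and 11288 of 11293 dropped from that of RKO were found lost.

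All HOX genes are counted, and all are named apart from 1, whose own results are not reported here, nor are those of 1 regulator. Full intervals are given for genes open in every list of a single line, for genes lost or gained in both lines, and for the highest-scoring and widest interval of each cluster; intervals of genes open in both lines at different places were added after their values were seen. Promoters are printed for the first 2 genes open in no list. Members, gene lists and rules were chosen with earlier results of these data known. Alternatives were other windows and flanks, gene starts or whole genes, the upper 50% of each list, lists of equal number, the other control list and a stricter overlap.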

Additional observations from a re-analysis of the deposited data

Results flagged for a closer look

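The number of intervals in the HOX clusters moved in opposite directions with olaparib, against no treatment, in shControl cells of the 2 lines. In LOVO it went from 43 to 35, a change of -8, and in RKO from 27 to 34, a change of 7. The whole lists moved the same way, from 41431 to 32192 intervals in LOVO and from 21210 to 25855 in RKO. The merged list of untreated shControl held 26 cluster intervals in LOVO and 41 in RKO. The difference between the lines was not tested.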

How the results depend on the processing

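Of 151 alternative values for the main counts and shares, 85 stayed within 1.5 times of the count (or within the interval of the share) and 66 moved; the other 148 alternatives moved in 45 cases. Values below are the moved ones, and their causes were not tested, except that fewer intervals or genes were read where stated.

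With starts of the 20 genes of the promoter table only, fewer genes being read, open HOX genes numbered 5, 1, 8, 7 and 9 in LOVO (merged control, shMETTL3, scored control, olaparib, shMETTL3 with olaparib) and 9, 3, 5, 8 and 8 in RKO. With starts of all 39, an alternative chosen after seeing the data, LOVO shMETTL3 gave 3 and the scored control and olaparib lists 13 each. With the whole gene, LOVO shMETTL3 gave 8 and the RKO scored control 17. A window of 500 bp gave 13 with olaparib in LOVO and 2 with shMETTL3 in RKO, and one of 2000 bp gave 20 in the RKO scored control. In the upper 50% of each list, fewer intervals being read, open genes were 1, 7, 4 and 4 in LOVO from shMETTL3 on, and 2, 6 and 8 in the scored lists of RKO. Cluster intervals there were 17, 4, 12, 10 and 11 in LOVO and 23, 4, 6, 8 and 17 in RKO.

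With lists of equal number, shMETTL3 against shControl lost 5 in LOVO and 1 in RKO and gained 1 in RKO; olaparib lost 0 and gained 2 in LOVO, and lost 4 and gained 5 in RKO; shMETTL3 with olaparib lost 7 and gained 0 in LOVO, and lost 6 and gained 1 in RKO. With the other untreated control list, shMETTL3 lost 16 in LOVO and 9 in RKO and gained 3 in RKO, and olaparib lost 0 and gained 5 in LOVO and gained 0 in RKO, where 75.6% of cluster intervals were kept. At 500 bp, olaparib in RKO lost 1 and gained 4; shMETTL3 with olaparib gained 4 in LOVO, and lost 1 and gained 8 in RKO. At 2000 bp, olaparib gained 2 in LOVO and 5 in RKO; shMETTL3 with olaparib gained 5 in LOVO and lost 1 in RKO. At 50% overlap, shMETTL3 in RKO kept 2.44% of cluster intervals. At 500 bp, 1 gene (HOXB3) was open in all LOVO and no RKO lists. Genes open in both merged controls without a shared interval were 3 at 500 bp and 2 in the scored controls, alternatives also chosen after seeing the data.

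Leaving out a replicate was not possible, since each group has at most 1 list of each form. No paired analysis was possible because the only replicate number carried by the lists is 1, in the interval names of the scored lists. Depth and batch cannot be told apart from the groups, while list form is the same on both sides of each comparison apart from olaparib in shMETTL3 cells and those between control lists of different form.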

Other observations

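Long non-coding RNA genes of the clusters also differed between the lines. HOTAIR, an antisense RNA of HOXC, had an interval within 1 kb of a gene end in 0 LOVO and 3 RKO lists, and HAGLROS of HOXD in 0 and 3. Of 18303 long non-coding RNA genes, 1.39% had one in no LOVO list and 3 or more RKO lists. The HOTAIR intervals lie near the start of HOXC11, which overlaps HOTAIR. HOXB-AS1 had one in 0 and 4 lists and HOXB-AS3, which starts beside HOXB3, in 5 and 0 (1.84% of long non-coding RNA genes). HOTTIP, at the posterior edge of HOXA, had one in 5 LOVO and 4 RKO lists, and HAGLR in 4 and 5. Of all long non-coding RNA genes, 12.1% had one in 4 or more lists of each line. HOTTIP shares its intervals with the start of HOXA13, and HAGLR with that of HOXD1.

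For microRNA hairpins, which are short, an interval had to overlap the hairpin itself, without the 1 kb window used for genes. No share over all hairpins was taken. The hairpins MIR10A, MIR10B, MIR196A1, MIR196A2 and MIR196B, of microRNA families known to target HOX transcripts, were overlapped by an interval in 0 lists. MIR615 was overlapped in 1 LOVO list and MIR7704 in 1 RKO list.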
